A study of Macaca mulatta with 252 samples.

Results

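Gene expression in the CA1 field of the rhesus macaque hippocampus was compared with that in the neighbouring CA2 field of the same animals. The comparison took every array titled as CA1 and every array titled as CA2, with control RNA arrays left out, which gave 8 of the 252 arrays in the series and 8 of its 225 experimental arrays. Each field was held by 4 arrays, 1 from each of 4 adult monkeys (Macaca mulatta), named here females D and E and males A and C, so that each CA1 array had a CA2 partner from the same animal. The labels give no age, strain or treatment, and name no allele or agent.

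The study profiled areas and layers of the adult macaque brain on GeneChip Rhesus Macaque arrays, 1 array per piece of tissue. Pieces were cut out by laser capture, RNA was isolated with the RNeasy Micro kit, and 5 ng of it was amplified in 2 cycles before labelling. The labels name 3 amplification batches without saying which array belongs to which. A captured piece of a hippocampal field holds interneurons, glia and vessels as well as pyramidal cells, and in such tissue fewer cells of a type and less RNA per cell cannot be told apart.

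CA1 and CA2 are adjoining stretches of the pyramidal layer. CA3 axons reach CA1 along the Schaffer collaterals, whose synapses are the classic site of long-term potentiation, and CA1 is the main output of the hippocampus. CA2 lies between CA3 and CA1. In rodents its pyramidal cells resist potentiation at the same inputs, carry the signalling protein RGS14, which restrains it, are wrapped in perineuronal nets of extracellular matrix, and take part in social memory.

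The arrays of the 2 fields were alike in scale. Array medians ranged from 4.73 to 4.83 (log2), and each array correlated with its own field's mean at 0.9859 to 0.9925. The median standard deviation of a gene over the 4 animals was 0.166 in CA1 and 0.211 in CA2, against 0.184 over 9 repeat arrays of control CA3 tissue. The repeat arrays may come from different amplification batches, so these spreads do not measure how animals compare with technical repeats. Precision is limited by having 4 arrays a field. All levels below are log2 array levels, and all changes are CA1 minus CA2 on the log2 scale, fitted with limma over all 16 hippocampal arrays (those of CA3 and the dentate gyrus included) with animal as a block. A gene was called where its Benjamini-Hochberg adjusted p was under 0.05 and its change was at least 1, that is 2-fold. The contrasts of CA1 and CA2 with CA3 come from the same fit and share its arrays, so their values are only set side by side. By the same rule 4.64% of tested genes were called between CA1 and CA3 and 1.97% between CA2 and CA3.

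CA1 and CA2 differed in 363 of 10235 tested genes, which is 3.55% of them. Of these, 154 (1.5%) were higher in CA1 and 209 (2.04%) were higher in CA2. Genes higher in CA1 included the adaptor gene SH2D4B, the protein kinase C gene PRKCB, the somatostatin receptor gene SSTR1 and the calcium channel genes CACNA1B and TRPC4. Genes higher in CA2 included the secreted Wnt regulator DKK2, the Wnt ligands WNT2 and WNT5A, the growth factor NRG1, the proteoglycan ACAN of perineuronal nets, the interneuron gene PVALB and the myelin gene MBP. Not all of these passed the test against CA3. WNT2 was higher in CA2 than in CA3 by 2.35, but the CA2 minus CA3 change was 0.79 for DKK2, -0.38 for WNT5A, 0.08 for NRG1, -0.08 for ACAN, 0.72 for PVALB and -0.07 for MBP, with adjusted p between 0.0818 and 0.885. In the same way the CA1 minus CA3 change did not pass for SSTR1 (-0.48, adjusted p = 0.156) or CACNA1B (1.004, adjusted p = 0.0568). The change between CA1 and CA2 had the same sign in all 4 animals for 355 of the 363 genes, and for 334 of them no CA1 array overlapped any CA2 array. The genes were called on these same arrays, which favours both counts, so they are no separate support for the calls. Arrays of the fields did not overlap for 1657 of all tested genes (16.2%).

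**Figure D1:**
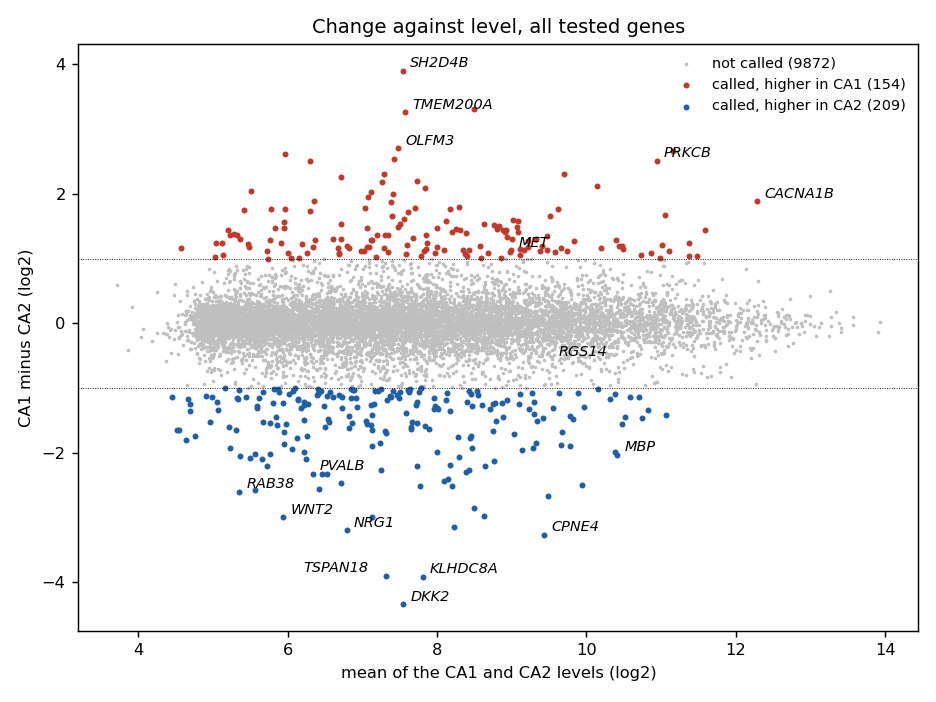
Fitted change (CA1 minus CA2, log2) against the mean of the CA1 and CA2 levels (log2) for the 10235 tested genes. Each point is a gene, red where called higher in CA1 (154), blue where called higher in CA2 (209), and the dotted lines mark a change of 1 in either direction; SH2D4B stands at the top and DKK2 at the bottom.

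The median sizes were close on either side, while changes of at least 2 were more numerous on the CA2 side. The median change among called genes was 1.30 for those higher in CA1 and 1.40, as an absolute value, for those higher in CA2. A change of at least 2 was reached by 18 genes higher in CA1 and by 39 higher in CA2, and a change of at least 3 by 3 and 6 genes. The median change over all tested genes was 0.00512. With no fold threshold, 2017 genes (19.7%) had an adjusted p under 0.05, 980 (9.57%) of them higher in CA1 and 1037 (10.1%) higher in CA2. Male A had the largest median change among genes higher in CA1 (1.74, against 1.12 to 1.32 in the other animals), and its CA2 array was the lowest of the 4 CA2 arrays for 101 of the 154 genes. Without male A, 122 genes were called higher in CA1 and 243 higher in CA2. Among genes higher in CA2, female E had the median furthest from 0 (-1.69, against -1.23 to -1.49 in the other animals), and its CA1 array was the lowest of the 4 CA1 arrays for 98 of the 209 genes. Without female E, 164 genes were called higher in CA1 and 169 higher in CA2.

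The 4 genes first looked at were SH2D4B, MET, DKK2 and RGS14, which earlier work on these data had named for these fields. SH2D4B encodes an adaptor with an SH2 domain, the module that docks on phosphorylated tyrosines. Its CA1 levels were 8.31 in female D, 10.07 in female E, 9.69 in male A and 9.91 in male C, and its CA2 levels were 5.29, 5.90, 4.68 and 6.50 in the same order. Every CA1 array lay far above every CA2 array, and the lowest CA1 array was that of female D. The change was 3.90 ± 0.31 (SE, n = 4 animals), or 14.95-fold, with an adjusted p of 1.06e-06 (limma). CA3 (mean 4.59) and the dentate gyrus (4.15) were low too, and among the 57 region groups of the series the CA1 mean of 9.49 was the highest, ahead of layer 2 of the temporal area at 9.10. Among the other 3 tested genes of the SH2D adaptors, none was called: SH2D5 had a change of 0.51 (adjusted p = 0.019), SH2D3C of 0.17 and SH2D2A of 0.02.

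DKK2 encodes a secreted Dickkopf protein that binds the Wnt co-receptors LRP5 and LRP6. On the CA1 arrays it stood at 3.96 in female D, 5.26 in female E, 6.15 in male A and 6.17 in male C. The CA2 arrays gave 9.02, 10.16, 9.74 and 9.96. All CA2 arrays were above all CA1 arrays, and in CA1 both females were below both males. DKK2 had the largest change of the comparison at -4.33 ± 0.35, a 20.2-fold higher level in CA2 (adjusted p = 1.40e-06). Another probe set of DKK2, below the level filter, gave -1.04. CA3 was also high at 8.92, and the CA2 minus CA3 change of 0.79 had an adjusted p of 0.182. The highest group outside the hippocampus had a mean of 5.83, and the dentate gyrus was at 3.21.

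MET, the receptor tyrosine kinase for hepatocyte growth factor, had CA1 levels of 9.56, 9.27, 9.63 and 9.77 in the same order of animals, which all lists of 4 array values below follow. In CA2 it had 8.63, 8.61, 7.88 and 8.60. The fields did not overlap, and the CA2 array of male A was the lowest. The change was 1.13 ± 0.23 (adjusted p = 0.0031), and it was 0.92 without male A and just under 1 (0.9985) without the CA2 array of male A alone, both under the fold threshold. Other probe sets of MET, all below the level filter, gave 0.14 to 0.63. From CA1 to CA3 (mean 5.74) and the dentate gyrus (3.78) the means fell at each step, and the CA2 minus CA3 change of 2.69 had an adjusted p of 3.20e-06. Among the 57 region groups the CA1 mean of MET ranked 4th, and layer 4cb of V1 was the highest at 10.27. Of the 16 tested genes of the HGF and MET pathway list, which was chosen with MET already known, MET was the 1 called. Among its signalling partners, the PI3-kinase subunit PIK3R1 had a change of 0.74, the kinase SRC 0.47 and the adaptor GAB2 -0.41, each at an adjusted p under 0.05 and under the fold threshold, and the ligand HGF was below the level filter.

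RGS14, which limits signalling by Gi proteins and Ras and is the standard protein marker of CA2, differed less. Levels in CA1 were 9.23, 9.02, 9.35 and 9.44, and levels in CA2 were 10.01, 9.61, 9.80 and 9.83. CA2 was higher in every animal and no arrays overlapped. The change of -0.55 ± 0.12 had an adjusted p of 0.00488 and did not reach the fold threshold. CA3 (7.88) and the dentate gyrus (7.92) were well below both fields, and CA2 and CA1 held the highest and the second highest means of the 57 region groups. The highest group outside the hippocampus, layer 2 of the anterior cingulate gyrus, stood at 7.99.

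**Figure D2:**
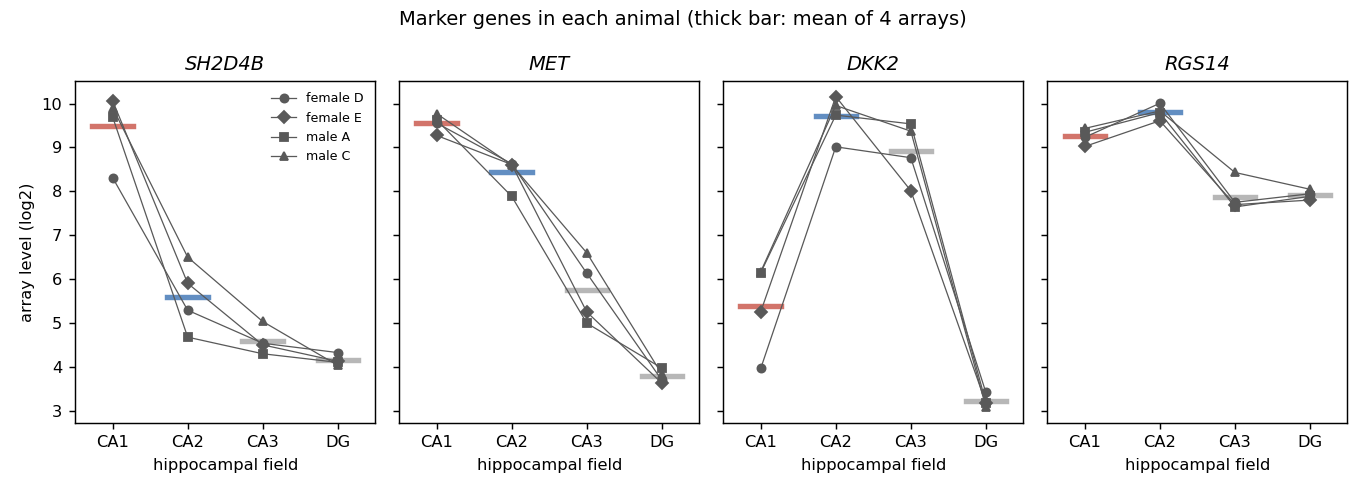
Log2 array levels of SH2D4B, MET, DKK2 and RGS14 across the hippocampal fields (DG, dentate gyrus), with 1 symbol per animal joined by lines and thick bars at the mean of 4 arrays. SH2D4B drops from 9.49 in CA1 to 5.59 in CA2, DKK2 rises from 5.38 to 9.72, and RGS14 is high in both fields.

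Gene lists are given below by how many tested members were called, to be read against 1.5% of all tested genes called higher in CA1 and 2.04% called higher in CA2. Counts with no fold threshold are to be read against 9.57% of all tested genes higher in CA1 and 10.1% higher in CA2. Genes known from CA2 in rodents were looked at as a list of 16, of which 13 were measured and 9 passed the level filter. None of the 9 was called, and 2 were higher in CA2 at an adjusted p under 0.05 with no fold threshold, RGS14 and NTF3. The median change of the list was -0.12, against 0.00512 for all tested genes. NTF3, the growth factor neurotrophin 3, had a mean of 4.65 in CA1 and 5.37 in CA2, a change of -0.72 ± 0.15, and was much higher in the dentate gyrus at 8.44. The calcium-binding protein gene NECAB2 had a change of -0.33 (unadjusted 95% interval -0.66 to -0.0029, adjusted p = 0.16), and the ephrin receptor EPHA4 one of -0.12 (-0.56 to 0.32). The adenosine receptor ADORA1 (0.04, interval -0.18 to 0.27), the AMPA receptor regulator CACNG5 (-0.12, -0.34 to 0.11) and the lipid transfer protein STARD5 (-0.07, -0.34 to 0.20) were near 0. The intervals of these 3 do not reach a 2-fold difference in array level. Their CA1 means of 5.96, 5.59 and 4.99 were low, not far above the filter of 4.7802. These values therefore do not show that the fields were alike in these transcripts. The vasopressin receptor AVPR1B, the kinase MAP3K15, the growth factor FGF2 and the secreted inhibitor SOSTDC1 were below the filter, and PCP4, PTPN5 and AMIGO2 were not among the genes matched to a probe set here.

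Of 7 tested genes known from CA1 pyramidal cells, 2 were called and both were higher in CA1, MET and ETV1, with a list median of 0.78. Earlier work on these data had already named MET for these fields, so its call is not independent of how the list was chosen. ETV1, a transcription factor of the ETS family, had a mean of 10.48 in CA1, 9.20 in CA2 and 7.93 in CA3, a change of 1.28 ± 0.20 from CA2 to CA1. The POU transcription factor POU3F1 (0.78) and the matricellular protein CCN3 (0.88) were higher in CA1 without reaching 2-fold. ZBTB20, a transcription factor that patterns the hippocampus, went the other way (-0.74), and WFS1, a protein of the endoplasmic reticulum, was at 0.00. MAN1A1 and NDST4 were below the filter and untested, with means of 5.29 and 5.25 in CA1 and 3.91 and 5.21 in CA2. None of 5 CA3 genes was called, where TRPS1 had -0.99 and BOK -0.61, while PRKCD, a protein kinase C, was higher in CA1 (0.88). Of 8 genes of dentate granule cells, 1 was called: the adhesion receptor ADGRG2, higher in CA1 by 1.39 at means of 5.97 and 4.58, compared with 10.54 in the dentate gyrus itself. Neither of 2 tested subicular genes was called. TOX and GPR101 of that list were below the filter and untested, with means of 5.94 and 3.63 in CA1 and 3.85 and 3.55 in CA2. The mean level of the 4 measured subicular genes lay between 6.07 and 6.57 on the CA1 arrays and between 5.63 and 5.87 on the CA2 arrays.

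Beyond the markers, the 15 genes in each direction with the largest changes, taken from those with the same sign in all 4 animals, are described here by what they encode. TMEM200A, a transmembrane protein, had CA1 levels of 9.02, 8.82, 9.16 and 9.78 and CA2 levels of 6.47, 5.16, 5.00 and 7.13. CA1 was higher in every animal by at least 2.55, and CA3, at 3.53, was lower still. Its change of 3.26 ± 0.30 was 9.56-fold (adjusted p = 3.95e-06). OLFM3, a secreted olfactomedin found with AMPA receptors, changed by 2.71 ± 0.28 and SLC35F4, a putative solute carrier, by 2.61 ± 0.16. SLC35F4 was tight within the fields, with CA1 levels of 7.10, 7.62, 7.07 and 7.28 and CA2 levels of 4.82, 4.58, 4.40 and 4.82.

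PRKCB, the beta form of protein kinase C, stood at 12.03, 12.29, 12.10 and 12.39 in CA1 and at 9.82, 9.75, 8.83 and 10.35 in CA2. The CA1 arrays were nearly level and the CA2 arrays spread over more than 1 log2 unit, lowest in male A. The change was 2.51 ± 0.19 (adjusted p = 7.42e-07), and another probe set of the gene gave 0.59 in the same direction. NPPA, the precursor of atrial natriuretic peptide, was higher in CA1 by 2.54 ± 0.17, RASL10A, a small Ras-like GTPase, by 2.30 ± 0.26, and MN1, a transcriptional regulator, by 2.19 ± 0.18. H1-2, a linker histone whose near-identical copies could share probes, had 2.65 ± 0.31, with a further probe set at 2.19 and another at -0.16. AMMECR1 (2.51) and the tRNA methyltransferase METTL8 (2.19) rested on 1 probe set each, since their means over all probe sets were 0.49 and 0.70.

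KLHDC8A, a kelch domain protein, was level across the animals in CA2. In CA1 it had 5.93, 5.01, 6.22 and 6.25, and in CA2 it had 9.86, 9.51, 9.75 and 9.95. The difference nearest to 0 within an animal was -3.53, in male A, and the fitted change was -3.91 ± 0.18, or 15.1-fold (adjusted p = 2.05e-08). Another probe set of KLHDC8A gave -1.66. CA2 was above CA3 (8.33) as well, with a CA2 minus CA3 change of 1.43 (adjusted p = 1.09e-04).

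TSPAN18, a tetraspanin, was lower in CA1 than in all 3 other fields. Its CA1 levels of 4.77, 5.28, 5.87 and 5.57 compared with CA2 levels of 9.44, 9.18, 9.48 and 8.98. CA3 (9.56) and the dentate gyrus (8.77) resembled CA2 in level. The change was -3.90 ± 0.19 (adjusted p = 2.05e-08), and another probe set of TSPAN18 gave -0.74. CA1 was likewise the lowest of the 4 fields for TAFA2, a secreted chemokine-like protein (-2.97 ± 0.15), and for ZDHHC22, a palmitoyltransferase (-3.15 ± 0.17), whose CA1 mean of 6.66 was the lowest of the 57 region groups.

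CPNE4, a copine that binds membranes in a calcium-dependent way, gave 7.78, 6.43, 8.47 and 8.55 in CA1 and 11.12, 11.05, 10.88 and 11.20 in CA2. Its CA1 arrays varied by over 2 units while its CA2 arrays were level, and the change was -3.26 ± 0.25. Another probe set of CPNE4 gave -4.39. TRHDE, the enzyme that degrades thyrotropin-releasing hormone, changed by -2.67 ± 0.29, IQCG, a ciliary protein, by -2.86 ± 0.24, MGAT4C, a glycosyltransferase, by -2.57 ± 0.21, and RBMS3, an RNA-binding protein, by -2.99 ± 0.25. ANLN, an actin-binding protein of dividing cells that oligodendrocytes also make, changed by -2.51 ± 0.31, and by -2.73 on another probe set.

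**Figure D3:**
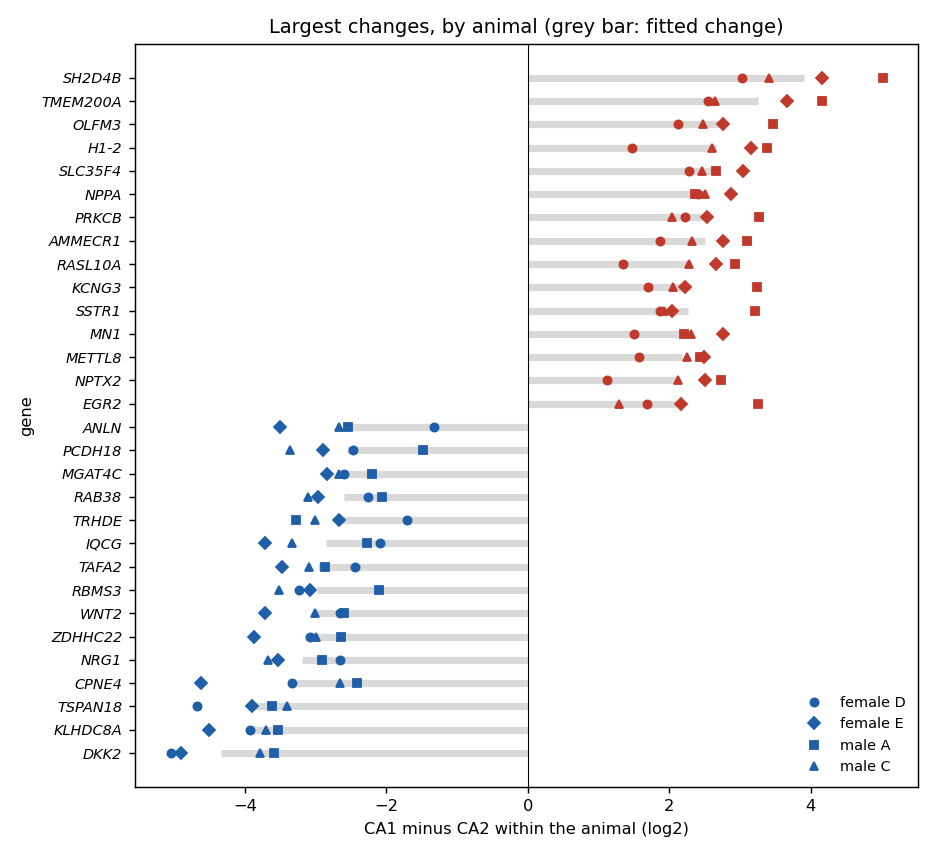
CA1 minus CA2 within each animal (log2, 1 symbol per animal) for the 15 largest called changes in each direction, with grey bars at the fitted change. The genes were chosen to have 1 sign in all 4 animals, so that symbols of a gene share a side of 0 by selection, and male A holds the largest difference for SH2D4B (5.02) and most other genes higher in CA1.

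A smaller set of genes was higher in CA2 than in both of its neighbours. RAB38, a Rab GTPase of lysosome-related organelles, had CA1 levels of 4.26, 3.98, 4.06 and 3.92 and CA2 levels of 6.51, 6.94, 6.12 and 7.03. All CA1 arrays were near the lower end of the array scale, and all CA2 arrays lay above them without overlap. The CA1 minus CA2 change was -2.60 ± 0.18 (adjusted p = 3.94e-07), the CA2 minus CA3 change was 2.13 (adjusted p = 3.08e-06), and the highest group outside the hippocampus had a mean of 4.27.

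SOX5, a transcription factor of the SOX family, had 6.38, 6.02, 6.44 and 6.31 in CA1 and 8.14, 7.41, 7.57 and 7.17 in CA2. CA2 was higher in each animal, the CA1 minus CA2 change was -1.28 ± 0.22 and the CA2 minus CA3 change was 1.33 (adjusted p = 0.00101). PCDH18, a protocadherin, had a CA1 mean of 5.14, a CA2 mean of 7.69 and a CA3 mean of 5.76, with changes of -2.55 ± 0.32 against CA1 and 1.94 against CA3, and was highest in the dentate gyrus at 9.70. For CDH7, a cadherin, the CA2 mean of 5.90 compared with 4.75 in CA1 and 4.16 in CA3. Its CA1 minus CA2 change of -1.15 had an adjusted p of 0.0149, and without female D the change was -0.83 with an adjusted p of 0.107.

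**Figure D4:**
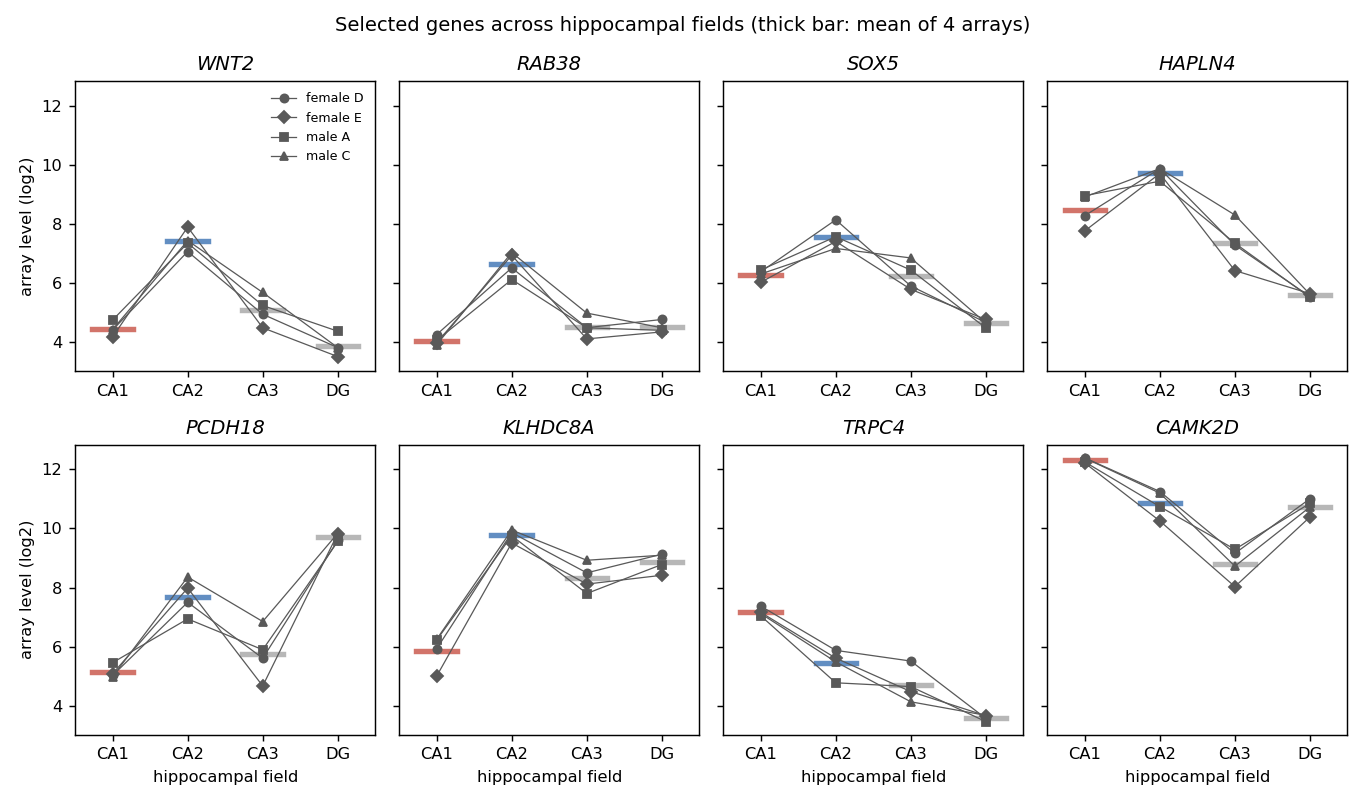
Log2 array levels of 8 genes across the hippocampal fields (DG, dentate gyrus), with 1 symbol per animal joined by lines and thick bars at the mean of 4 arrays. WNT2, RAB38, SOX5 and HAPLN4 peak in CA2, PCDH18 and KLHDC8A are higher in CA2 than in CA1 and CA3, and TRPC4 and CAMK2D are highest in CA1.

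Wnt signalling works through secreted ligands that bind Frizzled receptors and LRP co-receptors, and is tuned by secreted inhibitors and by R-spondins, which raise receptor levels. Of 46 listed Wnt genes, 39 were measured and 28 passed the filter. Of the 28, 6 were called higher in CA2 (the background was 2.04% of all genes) and 1 was called higher in CA1 (background 1.5%), and the list median was -0.08. With no fold threshold, 8 were higher in CA2 (background 10.1%) and 4 higher in CA1 (background 9.57%). The list was chosen with DKK2 already known.

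Among the ligands, WNT2 had CA1 levels of 4.41, 4.18, 4.75 and 4.43 and CA2 levels of 7.07, 7.89, 7.35 and 7.44. CA2 was higher in every animal, with the difference nearest to 0 (-2.60) in male A. The change was -2.99 ± 0.21 (adjusted p = 4.53e-07), WNT2 was also higher in CA2 than in CA3 by 2.35 (adjusted p = 5.52e-06), and its CA2 mean of 7.44 was the highest of the 57 region groups, with 5.89 as the highest outside the hippocampus. WNT5A, a ligand of mainly non-canonical signalling, had 6.80, 6.88, 6.95 and 6.79 in CA1 and 8.25, 8.44, 8.66 and 8.48 in CA2, a change of -1.60 ± 0.17. WNT3, a canonical ligand, changed by -1.19 ± 0.24, and the mean over its probe sets was -0.52. WNT11 had 0.66, higher in CA1 at an adjusted p of 0.014, and WNT4, WNT5B, WNT7A and WNT10B did not pass.

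Among the receptors, FZD7 had 8.57, 8.30, 9.25 and 8.76 in CA1 and 10.17, 10.47, 10.64 and 11.08 in CA2. No arrays overlapped, the change was -1.87 ± 0.18 (adjusted p = 6.50e-06), and another probe set gave -1.44. FZD3 changed by -1.31 ± 0.28 (adjusted p = 0.00388), which became 0.0801 in the fit with no replicate block. Other probe sets of FZD3, below the level filter, gave -0.29 and -0.07. FZD1 (0.78) and FZD4 (0.50) were higher in CA1 under the fold threshold, and FZD5, FZD8, FZD9 and the co-receptor LRP6 did not pass.

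Among the modulators, RSPO3, an R-spondin, was the Wnt gene called higher in CA1. Its levels of 9.52, 9.60, 9.35 and 9.62 in CA1 lay above those of 8.43, 8.10, 7.39 and 8.09 in CA2, for a change of 1.52 ± 0.26 (adjusted p = 6.82e-04). The inhibitors SFRP1, SFRP4, WIF1 and DKK3 had changes between -0.34 and 0.23 and did not pass, and the target gene AXIN2 had 0.26 ± 0.17 (adjusted p = 0.36).

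Perineuronal nets are lattices of hyaluronan, link proteins and proteoglycans such as aggrecan around certain neurons. Of 12 tested genes on this list, 4 were called and all 4 were higher in CA2 (2.04% of all tested genes were), and the list median was -0.39. With the mean over probe sets, 3 of the 4, ACAN, ADAMTS4 and HAPLN1, were under the fold threshold. ACAN, which encodes aggrecan, had 5.93, 4.75, 5.15 and 4.51 in CA1 and 7.59, 7.33, 7.13 and 6.05 in CA2. The lowest CA2 array, from male C, lay just above the highest CA1 array, from female D. The change was -1.94 ± 0.23 (adjusted p = 3.98e-05). Other probe sets of ACAN gave -1.0049 and 0.12, and the mean over its probe sets was -0.94.

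HAPLN4, a link protein, had 8.28, 7.76, 8.96 and 8.91 in CA1 and 9.87, 9.70, 9.45 and 9.87 in CA2, and its CA3 mean was 7.34. Its CA1 minus CA2 change was -1.24 ± 0.25, its CA2 minus CA3 change was 2.38 (adjusted p = 1.68e-05), and its CA2 mean was the highest of the 57 region groups. The link protein HAPLN1 changed by -1.09 ± 0.22, or by -0.94 without female D and -0.75 as the mean over its probe sets. The aggrecan-cleaving protease ADAMTS4 changed by -1.27 ± 0.21, with 0.17 on another probe set and -0.55 as the mean over its probe sets. The proteoglycans BCAN (-0.13) and VCAN (0.10) did not pass the test. HAPLN2, a link protein of myelinated axons, had -0.65 and the protease ADAMTS3 -0.79, both higher in CA2 under the fold threshold.

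Some genes of other cell types in the pieces also differed between the fields. Inhibitory neurons form a minority of cells in either field and include basket cells that express parvalbumin. Of 9 tested interneuron genes, 3 were called higher in CA2 and 1 higher in CA1, and the list median was -0.81. The mean level of the 10 measured genes lay between 7.04 and 7.503 on the CA1 arrays and between 7.85 and 7.99 on the CA2 arrays. PVALB, which encodes parvalbumin, had 5.16, 4.77, 4.89 and 5.88 in CA1 and 7.90, 7.53, 7.55 and 7.02 in CA2, so that all CA2 arrays were higher. Its change was -2.32 ± 0.25, or 5.01-fold (adjusted p = 1.44e-05), and CA3, at 6.78, lay between. PVALB and ACAN are often found in the same interneurons, and the part of interneuron number in the perineuronal net genes was not tested.

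GAD1, the enzyme that makes GABA, was higher in CA2 by 1.17 ± 0.21 (means 9.73 and 10.89), although the mean over its probe sets gave -0.47. The neuropeptide gene NPY had 7.96, 7.497, 7.48 and 9.04 in CA1 and 8.39, 9.41, 9.83 and 8.75 in CA2, overlapping fields with the opposite sign in male C. Its change of -1.10 ± 0.32 (adjusted p = 0.0242) did not hold without male A (adjusted p = 0.204), without female E (0.19) or with only the 8 CA1 and CA2 arrays (0.0804). The interneuron transcription factors LHX6 (-0.88) and DLX1 (-0.80) were higher in CA2 under the fold threshold, and GAD2 (-0.44, adjusted p = 0.17) did not pass. LAMP5, a membrane protein of neurogliaform interneurons, was higher in CA1 by 1.17 ± 0.16 and highest in the dentate gyrus at 10.38.

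Of 7 tested genes of myelin and oligodendrocytes, 3 were called higher in CA2 (MBP, UGT8 and ENPP2) and none higher in CA1, and the list median was -0.79. Their mean level lay between 7.67 and 8.20 on the CA1 arrays and between 8.47 and 9.07 on the CA2 arrays, with CA3 at 8.90 to 9.04. MBP, myelin basic protein, had 10.07, 9.40, 9.34 and 8.78 in CA1 and 11.65, 11.56, 11.71 and 10.77 in CA2. The arrays of male C were the lowest in both fields. The change was -2.03 ± 0.20 (adjusted p = 6.78e-06), with -1.83 on another probe set. UGT8, which makes the myelin lipid galactocerebroside, changed by -1.63 ± 0.21 and ENPP2, autotaxin, by -1.32 ± 0.19 (-0.75 as the mean over its probe sets), while CNP (-0.13) and the lineage factor OLIG2 (0.12) did not pass. The gap junction protein GJB1 (-0.79) and the lineage factor SOX10 (-0.45) were higher in CA2 under the fold threshold. The part of myelin or oligodendrocyte content in other genes higher in CA2, among them ERBB3, ADAMTS4 and ANLN, which oligodendrocytes are known to express, was not tested.

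Other non-neuronal lists differed less. None of 9 astrocyte genes, 11 microglial genes or 7 genes of endothelium and mural cells was called. The astrocyte median was -0.29, and all 9 tested members lay on the CA2 side, from -0.70 to -0.14. With no fold threshold 3 astrocyte genes were higher in CA2 (background 10.1%), ALDOC (-0.70), SLC1A2 (-0.48) and FGFR3 (-0.46), while GFAP had -0.24 with an adjusted p of 0.47. The microglial median was 0.09 (range -0.38 to 0.29) and the endothelial median -0.03 (range -0.41 to 0.12). None of 10 heat shock and RNA quality genes was called, with HSP90AA1 at -0.41 as the furthest from 0.

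**Figure D5:**
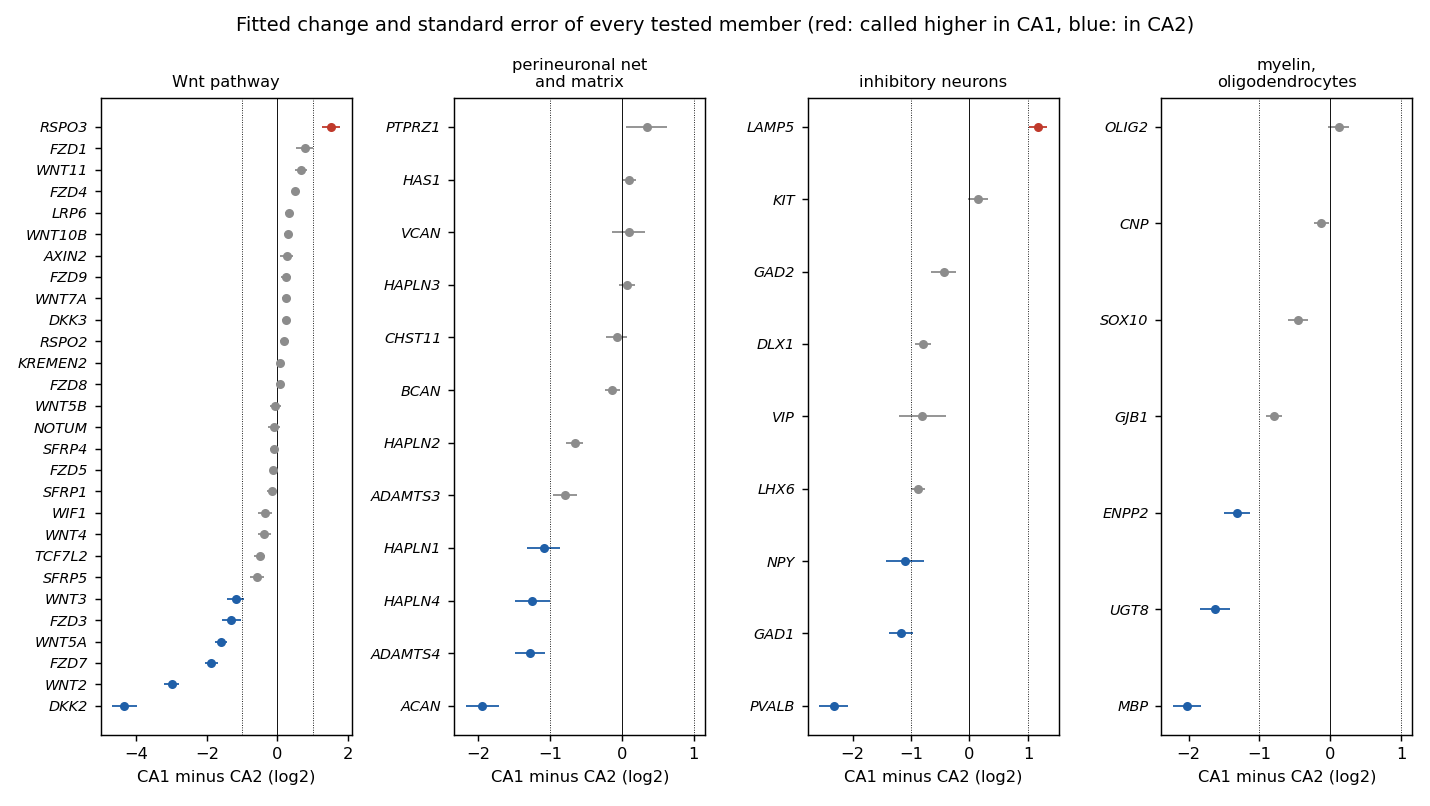
Fitted CA1 minus CA2 change (log2) with its standard error for every tested member of 4 gene lists, red where called higher in CA1, blue where called higher in CA2 and grey otherwise, with dotted lines at a change of 1. The called members lie mostly at the CA2 side, led by DKK2 (-4.33), PVALB (-2.32), MBP (-2.03) and ACAN (-1.94), with RSPO3 (1.52) and LAMP5 (1.17) at the CA1 side.

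Among general genes of excitatory neurons, 1 of 6 was called. NEFH, the heavy neurofilament subunit of large axons, had 8.62, 7.88, 7.86 and 8.29 in CA1 and 10.72, 10.12, 9.68 and 9.93 in CA2. All CA2 arrays were higher, and the change was -1.95 ± 0.15 (adjusted p = 7.95e-07). The vesicular glutamate transporter SLC17A7 (0.18) and the synaptic vesicle protein SYT1 (-0.09) did not pass. NRGN, a calmodulin-binding postsynaptic protein, was higher in CA1 (0.74) and the kinase subunit CAMK2B higher in CA2 (-0.62), each under the fold threshold.

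Of 40 tested potassium channel genes, 3 were called higher in CA1 (background 1.5%) and none in CA2 (background 2.04%), with a list median of 0.11. Of the 3, 1 had overlapping arrays. With no fold threshold 12 were higher in CA1 (background 9.57%) and 8 in CA2 (background 10.1%). KCNG3, a modifying subunit of voltage-gated channels, had 8.45, 8.48, 8.32 and 8.53 in CA1 and 6.74, 6.26, 5.08 and 6.49 in CA2. CA1 was level and CA2 was lowest in male A, with a change of 2.30 ± 0.31 (adjusted p = 1.06e-04). KCNK12, a tandem-pore channel, changed by 1.11 ± 0.13. KCND2, the Kv4 channel of the dendritic A-type current, had overlapping fields, with a difference of -0.02 in female D, and its change of 1.02 ± 0.24 was 0.61 without male A. The axonal channels KCNA1 (-0.93) and KCNA2 (-0.75) and the subunit KCNMB4 (-0.88) were the potassium channel genes furthest to the CA2 side.

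Of 16 sodium, calcium and cation channel genes, 2 were called, both higher in CA1 (background 1.5%). CACNA1B, the pore of N-type calcium channels, had 13.18, 13.13, 13.35 and 13.26 in CA1 and 12.21, 11.50, 10.64 and 11.02 in CA2. The fields did not overlap and CA2 was the more variable, with a change of 1.89 ± 0.36 (adjusted p = 0.00168). Another probe set of CACNA1B gave -0.02, and the mean over its probe sets was 0.94. TRPC4, a cation channel opened downstream of phospholipase C, had 7.37, 7.16, 7.05 and 7.12 in CA1 and 5.87, 5.61, 4.78 and 5.49 in CA2. Its change was 1.74 ± 0.20 (adjusted p = 2.76e-05), and its means in CA1, CA2 and CA3 were the 3 highest of the 57 region groups, with 4.55 as the highest outside the hippocampus. The sodium channels SCN3A (0.95) and SCN1A (-0.91) went in opposite directions, each under the fold threshold.

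Among calcium-binding and calcium-handling proteins, 2 of 23 were called, PVALB in CA2 and CAMK2D in CA1. CAMK2D, the delta form of calcium/calmodulin-dependent kinase II, had 12.39, 12.21, 12.25 and 12.38 in CA1 and 11.25, 10.25, 10.74 and 11.19 in CA2. CA3 was lower again at 8.80. The change between CA1 and CA2 was 1.45 ± 0.17 (adjusted p = 2.99e-05), and 2 other probe sets gave 1.43 and 1.44. Of 20 tested genes of MAPK and phosphatase signalling, 2 were called, both higher in CA1: the exchange factor RASGRF2 (1.28 ± 0.15) and the phosphatase PTPN3 (1.17 ± 0.14). Averaged over their probe sets they had 0.81 and 0.96.

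RGS proteins shorten signalling by G proteins. None of 16 tested RGS and G protein subunit genes was called, and the list median was 0.15. With no fold threshold 7 were higher in CA1 (background 9.57%), led by RGS7 (0.95) and RGS20 (0.82). On the CA2 side 2 were higher (background 10.1%), RGS14 and the subunit GNAI3 (-0.64).

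Of 33 receptors for neuromodulators and peptides, 2 were called higher in CA1 and 1 higher in CA2, with a list median of 0.03. SSTR1, a somatostatin receptor, had 7.80, 8.17, 7.95 and 7.42 in CA1 and 5.94, 6.14, 4.74 and 5.50 in CA2. CA2 was low against both neighbours, since CA3 stood at 8.32. The change between CA1 and CA2 was 2.26 ± 0.23 (adjusted p = 9.64e-06), and between CA2 and CA3 it was -2.74 (adjusted p = 3.08e-06). ADRA2A, an alpha-2 adrenergic receptor, showed the same dip, with means of 6.81 in CA1, 5.59 in CA2 and 7.65 in CA3 and changes of 1.22 ± 0.12 and -2.06. HTR1E, a serotonin receptor, was higher in CA2 by 1.21 ± 0.15 (means 5.62 and 6.83). HTR7, another serotonin receptor, was just under the fold threshold (-0.99965 ± 0.17, adjusted p = 6.71e-04), and the opioid receptor OPRM1 had -0.83.

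Of 13 tested ionotropic glutamate receptor genes, 1 was called. GRIA4, an AMPA receptor subunit common in interneurons, had a change of -1.01 ± 0.27 (adjusted p = 0.0169) that was lost without female E (adjusted p = 0.122) and without male C (0.0584), and was -0.63 as the mean over its probe sets. GRIA1, another AMPA subunit, was higher in CA1 (0.60) and the auxiliary subunits CNIH3 (0.93) and CACNG2 (-0.71) went in opposite directions, all under the fold threshold. Neither of 2 genes of the metabotropic glutamate receptor list and none of 5 GABA receptor genes was called, with the GABA subunits GABRB1 at -0.90 and GABRA3 at 0.67.

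Activity-regulated genes showed no common shift. Of 15 tested, 2 were called, both higher in CA1, and the list median was 0.02. NPTX2, a secreted pentraxin that gathers AMPA receptors, had 11.22, 11.17, 11.27 and 11.13 in CA1 and 10.11, 8.67, 8.53 and 9.0004 in CA2. The CA1 arrays were nearly level, and the change was 2.12 ± 0.33 (adjusted p = 3.26e-04). EGR2, an early-response transcription factor, had 9.29, 9.15, 8.01 and 9.08 in CA1 and 7.61, 6.98, 4.75 and 7.80 in CA2, with male A lowest in both fields and a change of 2.10 ± 0.33. The immediate early genes FOS (-0.17), ARC (-0.11), JUNB (0.04) and NPAS4 (-0.45) did not pass.

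Growth factors and their receptors gave 1 gene in CA1 and 3 in CA2 out of 33 tested, with a list median of -0.05. NRG1, neuregulin 1, a ligand of ErbB receptors, had 5.79, 5.01, 4.93 and 5.05 in CA1 and 8.45, 8.54, 7.84 and 8.73 in CA2. The CA2 and CA3 (8.31) means were close, CA1 was lower in every animal, and the change was -3.19 ± 0.18, or 9.15-fold (adjusted p = 6.73e-08). Another probe set of NRG1 above the level filter gave -1.07, and others below it gave -0.11 and 0.03. ERBB3, a neuregulin receptor, changed by -1.54 ± 0.22, with -0.73 as the mean over its probe sets. FGF9, a fibroblast growth factor made by neurons, changed by -1.56 ± 0.12 at CA1 levels of 6.49, 6.05, 6.23 and 6.34 and CA2 levels of 7.72, 7.77, 7.93 and 7.91. GFRA2, the receptor for neurturin, was higher in CA1 by 1.87 ± 0.14 (adjusted p = 5.25e-07).

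Axon guidance genes were called in both directions, 3 of 41 higher in CA1 (background 1.5%) and 4 higher in CA2 (background 2.04%), with a list median of -0.00069. On the CA1 side were NTNG1, netrin G1, which links axons to dendrites (1.89 ± 0.17, or 0.96 as the mean over its probe sets), the ephrin ligand EFNB2 (1.33 ± 0.16) and the ephrin receptor EPHB6 (1.23 ± 0.17). On the CA2 side, SEMA3C, a secreted semaphorin, had 5.09, 6.92, 6.95 and 5.50 in CA1 and 7.22, 8.78, 8.14 and 9.40 in CA2. The animals differed widely in both fields, CA2 was nonetheless higher in each, and the change was -2.27 ± 0.54 (adjusted p = 0.00836). ROBO1, a receptor for Slit proteins, changed by -1.43 ± 0.20. The netrin receptor UNC5B (-1.21 ± 0.33) and the semaphorin receptor NRP1 (-1.10 ± 0.26, or -0.47 as the mean over its probe sets) had overlapping arrays, and leaving out female E took their adjusted p to 0.133 and 0.0852. Without female D these were 0.0735 and 0.0543, without the CA2 array of male A that of UNC5B was 0.0551, and without male C that of NRP1 was 0.0833.

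Cadherins hold synaptic partners together. Of 15 tested cadherin and protocadherin genes, 2 were called higher in CA1, CDH22 (1.67 ± 0.22) and CDH18 (1.36 ± 0.18), and 3 higher in CA2, PCDH18, CDH7 and PCDH8 (-1.41 ± 0.14). Of 34 patterning transcription factors, ETV1 was called in CA1 and SOX5 in CA2, against 3.55% of all tested genes called in either direction, and the means over their probe sets were 0.52 and -0.66. Of 25 respiratory chain genes none was called and 6 were higher in CA2 with no fold threshold (background 10.1%), led by the complex III subunit UQCRB (-0.91 ± 0.10).

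The CA1 minus CA2 change was also compared between the 2 females and the 2 males. No gene was called for a difference between the sexes and none had an adjusted p under 0.05 (limma, lowest adjusted p 0.206, 1158 genes at an unadjusted p under 0.05). With 2 animals of each sex, a difference that misses the threshold does not show that the sexes were alike.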

How the data were processed

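RNA of laser-captured hippocampal fields was measured on 1 array per field and animal. Values were deposited as log10 intensity, and per the file headers the authors ran RMA (also named in the submitters' processing notes) within each amplification batch in Matlab and scaled each probe set on whole brain control samples. They were multiplied by 3.321928 to give log2 values; the design had assumed log2. Of 52865 probe sets, 24969 had 1 symbol in the platform annotation; the probe set with the highest mean over 225 arrays stood for each of 14133 genes, and 10235 with a mean above 4.7802 over the 16 hippocampal arrays were tested. limma 3.58.1 (R 4.3.3) fitted field with animal as a block, with Benjamini-Hochberg adjustment over all tested genes; the fit was tested on simulated data. The pairing comes from the animals named in the labels. Deviations of same-animal arrays correlated at 0.39, 0.387, 0.0235 and 0.406, and those of different animals at -0.339 to 0.221. The value of male A (0.0235) lay within the range of different animals. Named were the 4 markers, the 15 largest called changes per direction with 1 sign in all 4 animals (symbols starting with LOC left out), and up to 6 called members per direction of each of 31 lists. Members and lists were chosen with earlier results of these data known. Levels of other regions are descriptions, since the batch of each array is not given in the labels. For the same reason batch could not be tested in the comparison of CA1 with CA2, and a part of batch in those changes cannot be told apart. No sequences or coordinates are given, as the reference lists served for names alone.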

Additional observations from a re-analysis of the deposited data

Results flagged for a closer look

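For each named gene and field, the highest or lowest of the 4 animals was set against the gap expected of 4 values (Dixon's 95% critical value). Such a gap was found in 13 of 152 sets of 4 arrays, and chance gives about 1 in 20. Male A stood lowest in 5 of them: MET in CA2 at 7.88 (others 8.60 to 8.63), H1-2 in CA1 at 12.2, NPPA in CA1 at 7.74, AMMECR1 in CA2 at 4.36 and EGR2 in CA1 at 8.01 (others 9.08 to 9.29). Female D stood lowest for MN1 in CA1 at 8.34, for TRHDE in CA2 at 9.92 and for RASGRF2 in CA1 at 9.49, and highest for NRG1 in CA1 at 5.79. Female E stood lowest for MN1 in CA2 at 6.17, for GAD1 in CA1 at 9.31 and for ERBB3 in CA1 at 4.59. Male C stood lowest for MBP in CA2 at 10.8. In all 13 sets the arrays of CA1 and CA2 still did not overlap. All named genes but RGS14 were called on these same arrays, which favours that outcome.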

How the results depend on the processing

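The count of 363 called genes stayed between 333 and 402 when each animal was left out in turn (122 to 188 higher in CA1, 169 to 243 higher in CA2) and was 348 with no replicate block, 361 with only the 8 CA1 and CA2 arrays and 371 with array weights. Leaving out the CA2 array of male A, chosen after the data were seen, gave 347. That array also had the lowest array weight of the 16 hippocampal arrays (0.373). The mean of all probe sets of a gene in place of the brightest gave 241, with 134 higher in CA2, and a filter at the 75th percentile of level gave 138 higher in CA2 among 6302 genes tested. With no filter on low values, 388 of 14133 genes were called, 165 higher in CA1 and 223 higher in CA2. Adjusted p alone gave 2017 genes, 980 and 1037 in the 2 directions. No named gene changed sign under any of these settings in which it was tested. With the mean of probe sets 17 of 74 named genes were under the fold threshold and kept an adjusted p under 0.05, and these values stand beside the genes in the text. MET and FZD3 fell below the level filter in that setting and were not tested there. With no replicate block NPY (adjusted p = 0.0626) and FZD3 were lost and no other named gene. Of 29 named genes with another probe set above the filter, 36 such probe sets gave the same sign in 30 and a change of at least 1 in 13.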

Other observations

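Some called genes outside the lists are given here singly. They were picked after their values were seen, from no list and with no denominator, and stand for no group. Higher in CA1 were SMAD3, a mediator of TGF-beta signalling (1.77), the activin receptor-like gene ACVR1C (1.505), PMEPA1 (1.20), and SLC30A3, a zinc transporter of synaptic vesicles (1.35). Higher in CA2 were the follistatin-like gene FSTL1 (-2.51), the activin receptor ACVR2A (-1.14), another zinc transporter, SLC30A4 (-2.496), and EVI2A (-2.46). Of the kallikrein proteases, KLK7 (1.99) and KLK5 (1.30) were higher in CA1 and KLK6 (-1.13) was higher in CA2.

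CRHBP, the binding protein of corticotropin-releasing hormone, was higher in CA2 (-1.34), as were HHIP, an inhibitor of hedgehog signalling (-2.30), and NGFR, the low-affinity neurotrophin receptor (-1.30). The class I histocompatibility genes MAMU-A (-1.504) and MAMU-AG (-1.45) were also higher in CA2, and near-identical copies of these genes could share their probes.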
